A study of Mus musculus with 9 samples.

Results

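Krt6a, Krt6b, Krt16, Krt17, S100a8, S100a9, Gjb2 and Gjb6 are 8 genes that classically rise in hyperproliferative or wounded epidermis. They were followed in whole skin of control mice (LC, 3 arrays) and of 3 transgenic lines named L60, L84 and LA (2 arrays each). The members were taken by name, as the 8 of 12393 genes that some probe set names alone: 3 probe sets named Krt6a, 2 named Krt17 and 1 named each other gene. All the mice were of the strain given as C57BL/DBA/FVB mixed and were 30 days old, and RNA came from 30 mg of skin. Each array received an RNA pool of a single genotype. The series title concerns constitutively active Akt and impaired BMP signaling. The promoter and form of Akt in each line, what sets the lines apart, and the number of mice in a pool are not given in the sources used here. Whether pools of a group came from separate mice is not given either, so each p-value measures only the spread between these pools, which may be technical.

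Keratins are the intermediate filaments of epithelial cells. Krt6a and Krt6b are type II keratins that pair with the type I keratins Krt16 and Krt17. In resting skin this set is made mainly in the hair follicle, in the outer root sheath and its companion layer, and in wounded or rapidly dividing epidermis it also appears between follicles. S100a8 and S100a9 are calcium-binding proteins that join as calprotectin and act as alarmins, signals of damage. Neutrophils hold large amounts of them, and inflamed keratinocytes make them too. Gjb2 and Gjb6 encode the connexins Cx26 and Cx30, subunits of the gap junction channels that let small molecules pass between neighbouring keratinocytes.

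The 8 genes form 4 pairs of neighbours in the RefSeq gene table (GRCm38.p6). Krt6a lies next to Krt6b on chromosome 15, Krt16 next to Krt17 on chromosome 11, S100a8 next to S100a9 on chromosome 3, and Gjb2 next to Gjb6 on chromosome 14, with 0 genes of the table between the members of each pair. The connexin pair holds the only gene of the 8 with a called difference, and its sequence is therefore shown for the 250 bases upstream of each start on the minus strand, from RefSeq. Gjb2 lies at chr14:57104703-57104952 and Gjb6 at chr14:57133612-57133861. Capitals mark GC boxes (GGGCGG or its reverse complement).
Gjb2: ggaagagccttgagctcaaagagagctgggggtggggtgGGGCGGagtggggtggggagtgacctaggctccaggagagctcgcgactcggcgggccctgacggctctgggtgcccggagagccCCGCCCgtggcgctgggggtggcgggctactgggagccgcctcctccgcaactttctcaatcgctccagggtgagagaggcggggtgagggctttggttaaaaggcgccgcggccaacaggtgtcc
Gjb6: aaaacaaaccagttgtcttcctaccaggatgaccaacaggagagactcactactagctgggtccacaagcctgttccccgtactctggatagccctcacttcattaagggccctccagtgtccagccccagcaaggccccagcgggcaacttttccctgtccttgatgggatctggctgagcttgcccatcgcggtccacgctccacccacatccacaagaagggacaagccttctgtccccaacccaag

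Both strands were searched for 6 motifs that do not contain each other: the TATA box (TATAAA), the GC box, the CCAAT box (CCAAT), the AP-1 site (TGANTCA), the STAT site (TTCNNNGAA) and the forkhead site (GTAAACA). The Gjb2 window held 2 GC boxes and none of the other 5 motifs, and the Gjb6 window held none of the 6. A GC box was present in 32.7% of all 32851 windows of this length. The G and C content was 69.2% for Gjb2 and 56.8% for Gjb6, against a median of 52.4% over all windows. The table also held S100a8, with 1 TATA box (present in 12.4% of windows), and S100a9, with 1 GC box. It did not match Krt6a, Krt6b, Krt16 or Krt17. A match describes the letters and is not a bound site.

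The deposited values are scores: each probe set was standardised to a mean of 0 and an SD of 1 across the 9 arrays. A gene's score is the mean over its probe sets, and a difference is in these SD units, so it carries neither an expression level nor a fold change. Scores cannot be compared in level between genes, nor can they show whether a marker of skin or of any cell type is absent. The spread over all genes was widest on LA 2 and L84 1 (SD 1.2 and 1.13, against 0.675 to 0.836 on the other arrays). Probe sets for 18S ribosomal RNA scored high on LC 1, L60 1 and L84 1 (0.339 to 2.09, against -0.642 to -0.528 elsewhere). The correlation of replicate arrays over all genes was -0.296 in L84, -0.0228 in L60, 0.229 in LA and 0.103 to 0.604 in LC. The median difference from LC over all genes was 0.0777 in L60, 0.00308 in L84 and 0.247 in LA.

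As a set the 8 genes were not higher in any line. With limma's test, called at an adjusted p under 0.05 over all genes, no member was higher than in LC in L60, L84 or LA, and a single member, the connexin Gjb2, fell, in L84 and in LA. In L60 the count was 0 of 8 with 0% of all genes called, and also 0 of 8 with moderated variance. At an unadjusted p under 0.05 it was 0 of 8 members and 585 of all genes. In L84 it was 1 of 8 against 0.565% of all genes, and in LA 1 of 8 against 1.8%. Over the 4 genotypes the F test called Gjb2 alone (adjusted p = 0.0106), where 0.734% of genes were called. The median difference of the 8 genes from LC was -0.139 in L60, -0.36 in L84 and -1.14 in LA. These comparisons share the LC arrays, so they are not independent of each other.

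**Figure D1:**
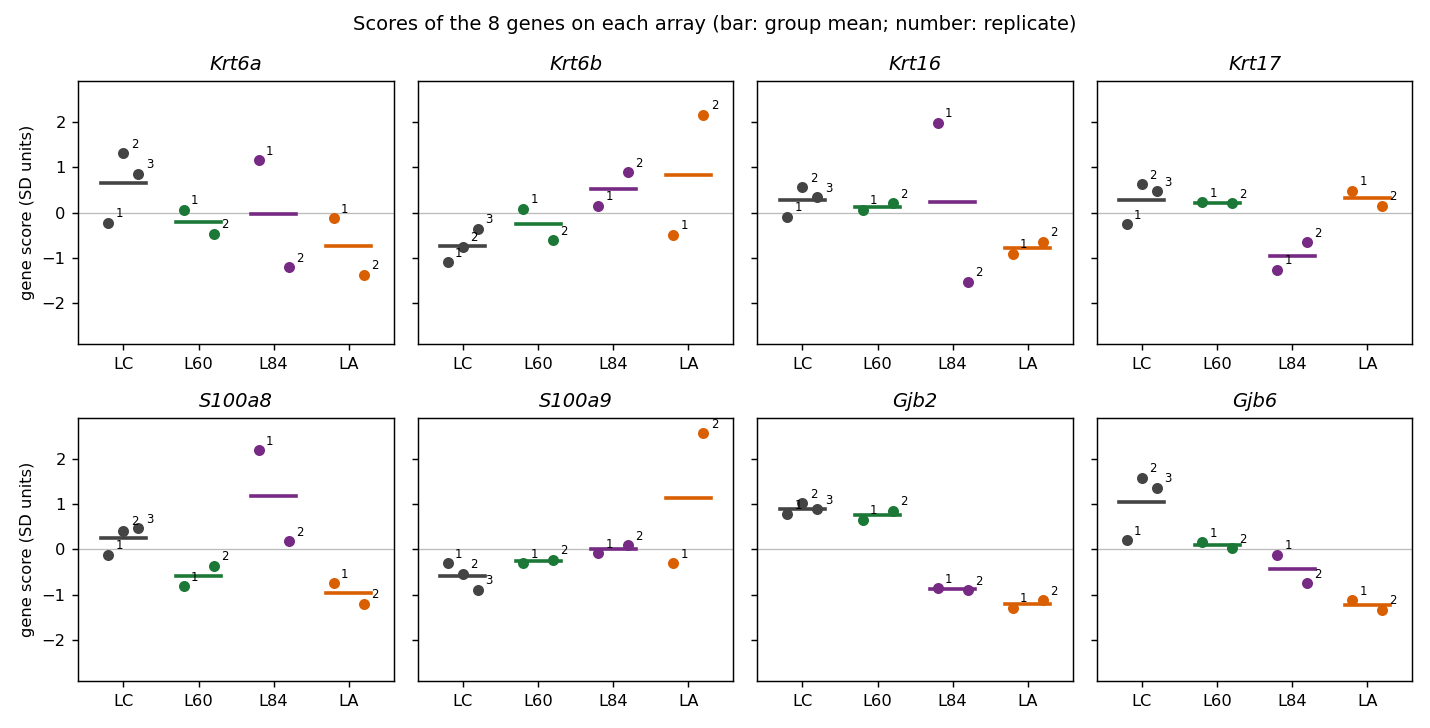
Score (SD units over the 9 arrays) of each of the 8 genes on every array, by genotype; points are arrays numbered by replicate and bars are group means. Gjb2 separates LC and L60 (0.649 to 1.01) from L84 and LA (-1.29 to -0.855), while the highest point of Krt16 and S100a8 is L84 1 and that of Krt6b and S100a9 is LA 2.

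Gjb2, the gene of Cx26, scored 0.775, 1.01 and 0.879 on LC 1 to 3 and 0.649 and 0.849 on the L60 arrays. On the L84 arrays it scored -0.855 and -0.9, and on the LA arrays -1.29 and -1.12. The arrays of L84 and LA thus lay below every LC and L60 array, with no overlap, and the L60 arrays overlapped those of LC. In a bulk tissue, fewer cells of a type and less RNA per cell cannot be told apart. Gjb2 fell by 1.77 ± 0.102 (SE) in L84 (difference -1.77, 95% interval -2.03 to -1.5, adjusted p = 0.00848) and by 2.09 ± 0.102 in LA (difference -2.09, 95% interval -2.36 to -1.83, adjusted p = 0.00469). In L60 the difference was -0.14 ± 0.102 (95% interval -0.403 to 0.123, adjusted p = 1). The fall in LA stayed called when any array was left out, with adjusted p up to 0.0379. In L84 the adjusted p was 0.0552, 0.0648 and 0.0569 without LC 2, LC 3 or L84 1. Neither was called with limma's moderated variance (adjusted p = 0.3 in L84 and 0.115 in LA) or with the replicate number as a block (0.201 and 0.117). The same held without the 3 arrays high in 18S (0.244 and 0.161), without the 2 arrays of widest scores (0.102 and 0.0736) or with only the arrays of the 2 groups compared (0.116 and 0.0606).

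The lines themselves differed in Gjb2. L84 lay below L60 by 1.63 (difference -1.63 ± 0.112, adjusted p = 0.0386), where 0.113% of genes and 1 of 8 members were called, and LA lay below L60 by 1.95 (difference -1.95 ± 0.112, adjusted p = 0.0126), where 0.629% of genes and 1 of 8 members were called. The first call was lost without any of the 9 arrays (adjusted p = 0.0789 to 0.209). The second was lost without LC 2, LC 3, L60 1, L60 2 or LA 2 (adjusted p = 0.0585 to 0.083). Between LA and L84 the difference was -0.327 ± 0.112 (95% interval -0.615 to -0.039, adjusted p = 0.435), with 0 of 8 members and 0.0161% of genes called. At an unadjusted p under 0.05 the counts there were 3 of 8 members and 1317 of all genes. The order of the group means was therefore LC, L60, L84 and LA, in which the neighbours LC and L60, and L84 and LA, did not pass the test.

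Gjb6, the gene of Cx30, scored 0.202, 1.58 and 1.36 on LC 1 to 3, 0.155 and 0.0276 in L60, -0.121 and -0.749 in L84, and -1.12 and -1.33 in LA. Group means followed the same order as for Gjb2, and every transgenic array lay below every LC array. None of the differences passed: -0.955 ± 0.469 in L60 (adjusted p = 1), -1.48 ± 0.469 in L84 (adjusted p = 0.336) and -2.27 ± 0.469 in LA (adjusted p = 0.0918, 95% interval -3.48 to -1.07). LC 1 stood apart from LC 2 and LC 3 and close to L60. Between L84 1 and LC 1, both high in 18S, the difference was -0.324, and between L84 2 and the mean of LC 2 and LC 3 it was -2.22. For Gjb2 the same subtractions gave -1.63 and -1.85. Over the 9 arrays the scores of Gjb2 and Gjb6 correlated at r = 0.848, the second highest of the 28 pairs of members after Krt6b and S100a9 (r = 0.866).

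Of 18 other connexin genes on the list, 11 were measured. Gja1, the gene of the widely expressed Cx43, fell in L84 and LA (differences -1.79 ± 0.173 and -1.92 ± 0.173, adjusted p = 0.0344 and 0.0169). It scored 0.737 to 1.15 in LC, 0.363 and 0.559 in L60, -0.949 and -0.776 in L84, and -1.16 and -0.825 in LA, so the groups did not overlap except L84 with LA. In L84 its call was lost without any of the 9 arrays (adjusted p up to 0.184), and in LA without LC 2, LC 3, L60 1, L60 2 or LA 2 (up to 0.101). None of the other 10 was called in any of the 6 comparisons. With moderated variance no call was kept for any gene of the lists described here (adjusted p = 0.3 in L84 and 0.115 to 0.117 in LA). Gjc3, the gene of Cx29, differed by -2.3 in LA (adjusted p = 0.0777) and Gja3, the gene of Cx46, by -1.88 in L84 (adjusted p = 0.386). The median over the 11 genes was -0.4 in L84 and 0.0296 in LA, beside 0.00308 and 0.247 over all genes, with 8 and 5 of the 11 below LC.

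Hair shaft keratins fell with Gjb2 in L84 and LA, while in L60, where Gjb2 overlapped LC, they lay below LC. The mean score of the 11 measured was 1.03 to 1.26 on the LC arrays, 0.199 and 0.21 in L60, -0.928 and -0.901 in L84, and -0.979 and -0.954 in LA. All 11 lay wholly below LC in L84 and in LA, as did 1826 and 2605 of all 12393 genes. Of the 11, 9 were called lower in L84 and 9 in LA. Among those called were Krt34 (differences -2.23 and -2.07), Krt36 (-2.21 and -2.07), Krt81 (-2.23 and -2.01) and Krt86 (-2.17 and -2.13). Krt34 kept both calls without any array, and Krt86 lost that in L84 without LC 2 (adjusted p = 0.0552). Krt36 lost its call in L84 without LC 2, LC 3 or L84 1 (up to 0.069) and in LA without LC 3 or LA 2 (up to 0.062). Krt81 kept its call in 2 of the 9 fits that left out an array in L84 and in 4 of 9 in LA (up to 0.117 and 0.0944). On both L60 arrays all 11 lay below LC, although 0 were called there and 9 had an unadjusted p under 0.05, beside 585 of all genes. Basal keratinocyte markers mostly went the other way: their mean over 8 genes was -0.972 to -0.513 in LC and -0.135 and 0.0424 in L60. It was 0.35 and 1.39 in L84, and -0.0628 and 0.487 in LA. In each of L84 and LA 7 of the 8 were higher than LC and 1 lower, with 2 called, both higher. The lower gene was Trp63, with group means of 0.589 in LC, 0.327 in L84 and -0.908 in LA. Krt5 and Krt15, keratins of the basal layer and of the bulge, rose in L84 (2.21 and 2.28) and LA (1.99 and 1.93). Their calls rested on several arrays: that of Krt5 was kept without LC 1 alone in both lines (adjusted p up to 0.211), and that of Krt15 was lost without LC 1, LC 2, LC 3, LA 1 or LA 2 in both and also without L84 1 in L84. The 10 suprabasal genes were split: in each of L84 and LA 6 were higher than LC and 4 lower. Those called were Krt77, which rose in L84 and LA (1.89 and 2.35), and Krt10, which rose in LA (2.11). Without LC 2, LC 3, L84 1, LA 1 or LA 2 the call of Krt77 in L84 was lost (adjusted p up to 0.0753), and that of Krt10 was lost without any of the 9 arrays (up to 0.167).

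Skeletal muscle markers scored higher in the same lines, with a mean over 12 genes of -0.494 to -0.408 in LC, -1.26 and -0.452 in L60, 1.3 and 0.164 in L84, and 1.05 and 0.54 in LA. None of the 12 was called against LC, and 5 had an unadjusted p under 0.05 in each of L84 and LA. Of all 12393 genes 1513 and 2576 did so in these lines. All 12 muscle genes were higher than LC in both. Of 8 fat and 9 fibroblast genes 0 were called, with 2 and 1 at an unadjusted p under 0.05 in L84 and 1 and 2 in LA. The part of muscle, fat or fibroblasts in the connexin differences was not tested.

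The genes whose scores followed Gjb2 most closely over the 9 arrays were Tyrp1, an enzyme of melanin synthesis (r = 0.991), Hoxc13, a homeobox factor of hair (r = 0.991), and Krt27, an inner root sheath keratin (r = 0.991). For Gjb6 they were Slc9a3r1, a scaffold protein at the cell membrane (r = 0.997), Fem1b (r = 0.98) and Slc39a6, a zinc transporter (r = 0.972). These correlations describe 9 arrays that share genotypes, and the part of hair follicle content in the connexin differences was not tested.

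**Figure D2:**
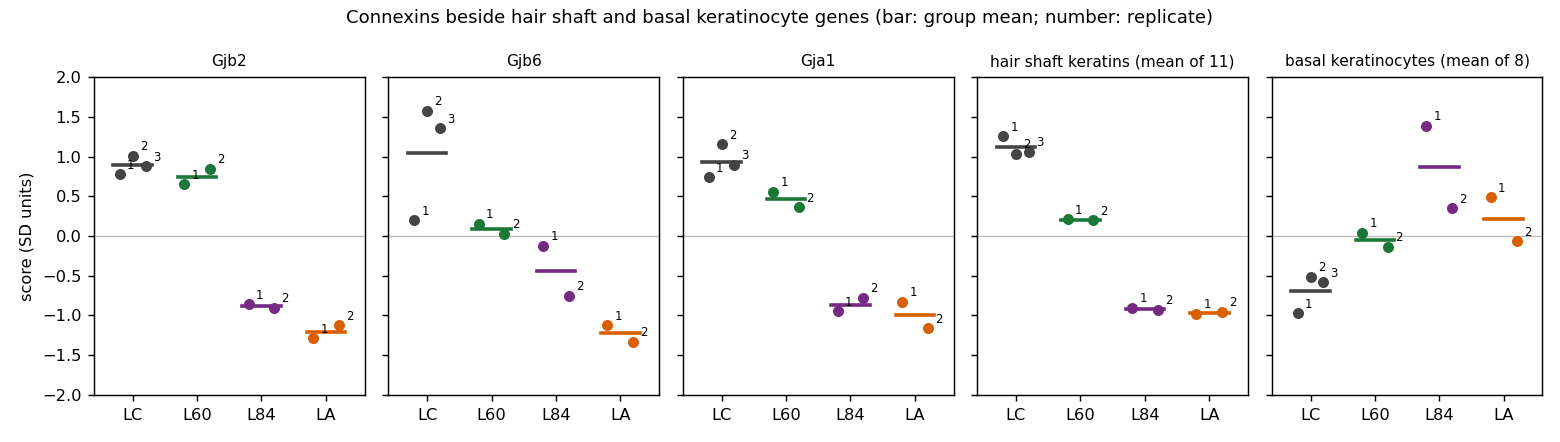
Scores (SD units) on every array for Gjb2, Gjb6 and Gja1 and the mean scores of 11 hair shaft keratins and 8 basal keratinocyte genes; points are arrays numbered by replicate and bars are group means. Gjb2, Gja1 and the mean of the hair shaft keratins lie below 0 on all L84 and LA arrays and above 0 on all LC and L60 arrays. The mean of the basal genes lies lowest in LC.

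The type II keratins Krt6a and Krt6b, which are close copies of each other, did not follow each other (r = -0.593 over the arrays). Krt6a scored -0.226, 1.31 and 0.855 on LC 1 to 3, 0.0658 and -0.461 in L60, 1.15 and -1.21 in L84, and -0.127 and -1.36 in LA. The L84 arrays spanned nearly its whole range, and each line overlapped LC. Its differences from LC were -0.846 ± 0.907 in L60, -0.676 ± 0.907 in L84 and -1.39 ± 0.907 in LA (adjusted p = 1, 0.829 and 0.419). Between L84 1 and LC 1 the difference was 1.38, and between L84 2 and the mean of LC 2 and LC 3 it was -2.29, so the sign in L84 turned with the arrays compared. The 3 probe sets of Krt6a correlated at 0.803 to 0.965 with each other.

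Krt6b scored -1.09, -0.755 and -0.358 on the LC arrays, 0.0837 and -0.606 in L60, 0.156 and 0.897 in L84, and -0.485 and 2.16 in LA. Both L84 arrays lay above LC, while in L60 and LA 1 array overlapped it. Its differences were 0.474, 1.26 and 1.57 (SE 0.845 each, adjusted p = 1, 0.634 and 0.347). Without LA 2 the LA difference was 0.25. How far a probe set of 1 copy also reads the other was not tested, and 1 of the 3 Krt6a probe sets carries the suffix that Affymetrix gives to sets that may cross-hybridise.

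Krt16, a type I keratin that partners Krt6 proteins, scored -0.0894, 0.564 and 0.345 on the LC arrays and 0.0643 and 0.205 on the L60 arrays. The L84 arrays gave the highest and the lowest score of all, 1.99 on L84 1 and -1.53 on L84 2. On the LA arrays it scored -0.909 and -0.64, below every LC and L60 array. No difference from LC passed (-0.138 in L60, -0.0433 in L84 and -1.05 in LA, SE 1.04 each, adjusted p = 1, 0.996 and 0.576). The L84 difference was 1.71 without L84 2 and -1.8 without L84 1.

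Krt17, the other type I keratin of the set, scored -0.252, 0.624 and 0.468 on the LC arrays, 0.233 and 0.203 in L60, -1.26 and -0.649 in L84, and 0.48 and 0.15 in LA. By this mean of 2 probe sets the L84 arrays lay below all others, with a difference of -1.23 ± 0.336 from LC (95% interval -2.1 to -0.37, adjusted p = 0.28). The differences in L60 and LA were -0.062 and 0.035 (adjusted p = 1 and 0.958). LA lay above L84 by 1.27 ± 0.368 (adjusted p = 0.394). The mean hides 2 probe sets that went apart (r = -0.245). One was lowest on L84 1 (-2.24) and highest on L60 1 (1.07), and the other was lowest on L84 2 (-1.6) and highest on LC 2 (1.53). In LA they differed from LC by 1.11 and -1.04 (adjusted p = 0.482 and 0.513 over all probe sets). In L84 they differed by -0.721 ± 0.816 and -1.75 ± 0.834 (adjusted p = 0.809 and 0.563 over all probe sets). On each of them L84 overlapped LC, with L84 2 at 0.305 on the first and L84 1 at -0.271 on the second. A further probe set, which names Krt17 and Krt14 together and was left out of the gene score, scored 2.54 on LA 2 and -0.707 to 0.14 elsewhere.

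**Figure D3:**
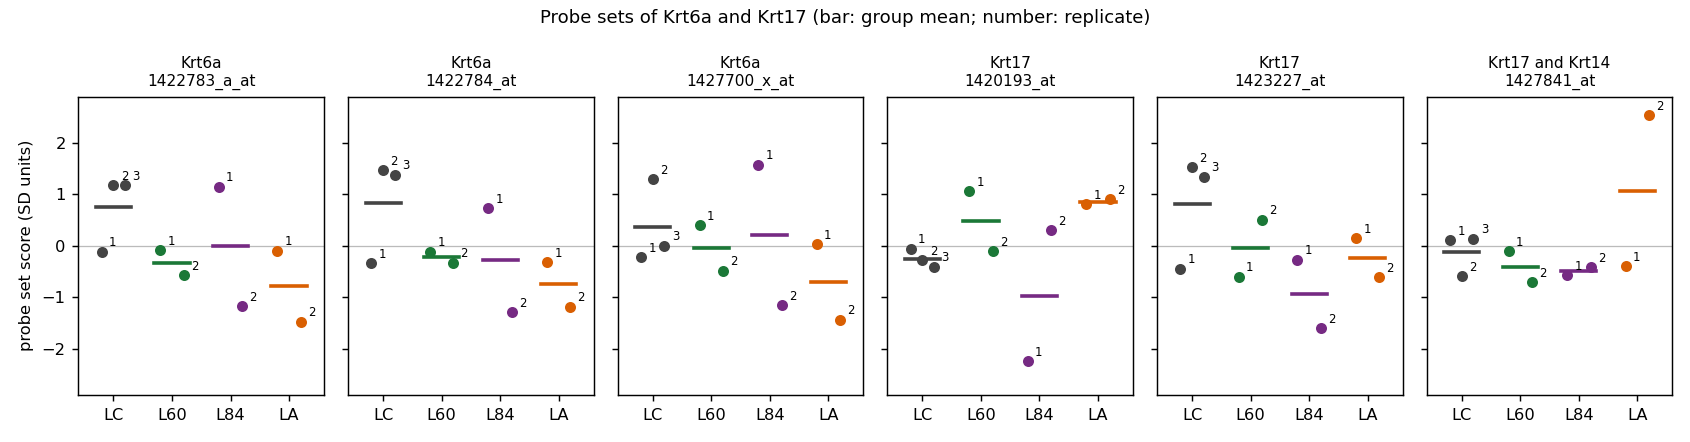
Score (SD units) of each probe set of Krt6a and Krt17 and of the probe set shared by Krt17 and Krt14, on every array; points are arrays numbered by replicate and bars are group means. The 3 Krt6a probe sets follow each other (r = 0.803 to 0.965), and the 2 of Krt17 do not (r = -0.245).

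The genes whose scores followed the keratins most closely were Ell2, Kdm4b and Rnf19a for Krt6a (r = 0.969 to 0.981) and Cyp3a25, Tll1 and Cyp3a16 for Krt6b (r = 0.962 to 0.971). For Krt16 they were Coq7, Ap4s1 and Lias (r = 0.945 to 0.953), of which Coq7 and Lias are mitochondrial enzymes. For Krt17 they were Nkain1, Eif2ak1 and Cap1 (r = 0.951 to 0.965). No keratin was among them. The members were left out of this ranking, and no pair of members exceeded r = 0.866. Krt6a and Krt16, which can form filaments together, correlated at 0.791, and Krt16 and Krt17 at -0.294. The basal keratin Krt14, from 3 probe sets, was not called: its difference from LC was 1.2 in L60, 1.57 in L84 and 0.13 in LA (adjusted p = 1, 0.351 and 0.899).

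The alarmin partners S100a8 and S100a9 did not move together (r = -0.411). S100a8 scored -0.119, 0.406 and 0.469 on the LC arrays, -0.814 and -0.363 in L60, 2.19 and 0.178 in L84, and -0.747 and -1.2 in LA. It lay below every LC array in L60 and LA and overlapped LC in L84, where L84 1 gave the highest score. Its differences from LC were -0.841 in L60, 0.931 in L84 and -1.22 in LA (SE 0.636 each, adjusted p = 1, 0.637 and 0.336). Between LA and L84 the difference was -2.15 ± 0.697 (adjusted p = 0.412), and without L84 1 it was -1.15. Without L84 1 the difference of L84 from LC was -0.0737.

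S100a9 scored -0.302, -0.538 and -0.894 on the LC arrays, -0.302 and -0.232 in L60, -0.0879 and 0.0929 in L84, and -0.302 and 2.56 in LA. A score of -0.302 was tied on LC 1, L60 1 and LA 1, the only tie among the 12 probe sets that name a member. Of all probe sets 44.3% held a tie, and what a tie reflects was not tested. The score on LA 2 stood above all others, and LA 1 equalled a control array. The L84 arrays lay above all LC and L60 arrays. Its differences from LC were 0.311, 0.58 and 1.71 (SE 0.846 each, adjusted p = 1, 0.851 and 0.32). Without LA 2 the LA difference was 0.276, and without LA 1 it was 3.14 and called (adjusted p = 0.0347), with LA 2 as the lone array of its group, assumed to vary like the others.

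The genes closest to S100a9 in pattern were Vipr1, Pkhd1 and Kynu (r = 0.984 to 0.991), and each of these also had its highest score on LA 2 (2.52 to 2.6). For S100a8 they were Bin3, Agpat3 and Psph (r = 0.953 to 0.97), each highest on L84 1 (2.15 to 2.41). Of 16 measured neutrophil markers 0 were called against LC in any line. In L60, L84 and LA 0, 0 and 1 of the 16 had an unadjusted p under 0.05, beside 585, 1513 and 2576 of all 12393 genes. Their mean score was -0.336 to -0.145 in LC, -0.398 and 0.219 in L60, -0.816 and 0.513 in L84, and 0.244 and 0.87 in LA. It was thus lowest on L84 1, where S100a8 was highest, and highest on LA 2, where S100a9 was highest and S100a8 lowest. The part of neutrophils in these scores was not tested.

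**Figure D4:**
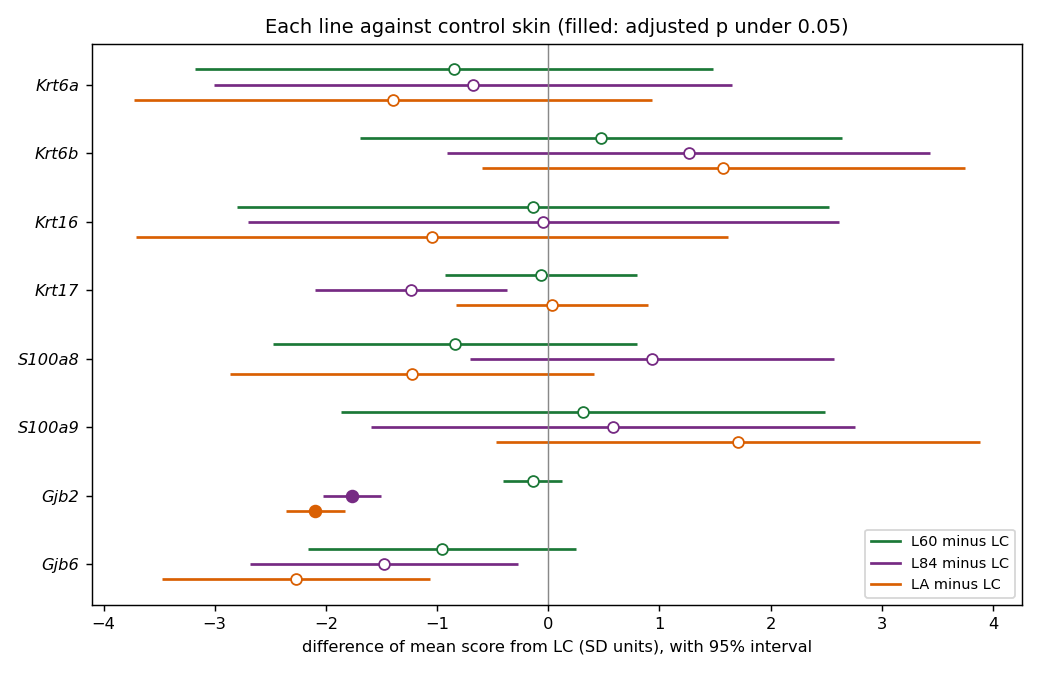
Difference of the mean score from LC (SD units, points) with its 95% interval (lines) for each of the 8 genes in L60, L84 and LA; filled points have an adjusted p under 0.05. Only Gjb2 in L84 (-1.77) and LA (-2.09) is filled, and its intervals are the narrowest.

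Outside the alarmins, 11 of 14 further S100 genes were measured. S100a3, a protein of the hair cuticle, fell in L84 and LA (differences -1.99 ± 0.0416 and -2.05 ± 0.0416, adjusted p = 0.000718 and 0.000812) and kept these calls without any array but not with moderated variance (0.3 and 0.115). S100a4, known from fibroblasts and immune cells, rose in both (differences 1.81 and 2.37, SE 0.18, adjusted p = 0.0369 and 0.0112). Its call in L84 was kept only without LC 1, and in LA it was lost without LC 2, LC 3 or LA 2. S100a16 differed by -2.1 in LA (adjusted p = 0.132). The family median was -0.193, -1.14 and -0.641 in L60, L84 and LA.

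Other genes of the stress response were mostly not called. Of 28 measured genes linked to wounds and hyperproliferation, such as the Sprr envelope proteins, 0 were called in L60 and L84. In LA 1 was called lower, the matrix protein Tnc (difference -1.81, adjusted p = 0.046, lost without any of the 9 arrays). At an unadjusted p under 0.05 the counts were 0, 6 and 8 of the 28 in L60, L84 and LA, beside 585, 1513 and 2576 of all 12393 genes. In LA 20 of the 28 were higher than LC and 8 lower. The median difference of the 28 was -0.118, 0.133 and 0.928, beside 0.0777, 0.00308 and 0.247 over all genes. Among 14 alarmins and alarmin receptors only Il33, a nuclear cytokine released on damage, was called: it rose in L84 (difference 2.47 ± 0.256, adjusted p = 0.0409), a call kept only without L84 2. In LA it differed by 1.43 (adjusted p = 0.0713). The receptors of S100a8 and S100a9, Tlr4 and Ager, were not called (Ager -1.84, -1.49 and -1.37 in L60, L84 and LA, Tlr4 0.997, -0.125 and 1.5).

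Of 14 growth factors and receptors around the EGF receptor 0 were called in any line. In L60, L84 and LA 2, 7 and 4 of the 14 had an unadjusted p under 0.05, beside 585, 1513 and 2576 of all 12393 genes. The share of the list was thus above that of all genes in each line, and most so in L84. In L84 6 of the 14 were higher than LC and 8 lower. Of 22 transcription factors linked to stress keratins, Stat3, which relays cytokine signals, rose in LA (difference 1.85 ± 0.216, adjusted p = 0.0329, lost without LC 1, LC 2, LC 3, L60 1 or L60 2). All 16 markers of macrophages and Langerhans cells were higher than LC in LA, with a median difference of 1.37 beside 0.247 over all genes. In LA 13 of the 16 lay wholly above LC, as did 3448 of all 12393 genes, and 2 were called. These were Cd207, the langerin of Langerhans cells (difference 2.49 ± 0.127, adjusted p = 0.00472, kept without any array but 0.115 with moderated variance), and Cd74 (difference 2.45, adjusted p = 0.0347, kept only without L84 1 or L84 2). Of 10 markers of the follicle companion layer and outer root sheath, where Krt6a, Krt16 and Krt17 are made in resting skin, Krt75 fell in LA (difference -2.08, adjusted p = 0.0409, kept only without LC 1) and Krt15 rose in L84 and LA.

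Counted by overlap in either direction instead of by the test, members stood clear of LC about as often as all genes in L60 and LA. In L84 the share was higher. In L60, 2 of 8 lay wholly below LC (S100a8 and Gjb6) and 25.1% of genes lay wholly to 1 side. In L84, 5 of 8 did so, Krt17, Gjb2 and Gjb6 below and Krt6b and S100a9 above, against 28.5%. In LA, 4 of 8 did so, all below (Krt16, S100a8, Gjb2 and Gjb6), against 48.8%. Of all 12393 genes, 1779, 1706 and 3448 lay wholly above LC in L60, L84 and LA, and 1337, 1826 and 2605 wholly below. In LA the members that stood clear were thus all below, while more of all genes stood above than below. Between lines the counts were 6 of 8 for L84 against L60 (29.4% of genes), 3 of 8 for LA against L60 (50.4%) and 4 of 8 for LA against L84 (33.5%). Krt17 counted for L84 against LC and L60 by its mean score, while each of its 2 probe sets alone overlapped there.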

How the data were processed

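The deposited values are scores from 9 Affymetrix arrays of biotin-labelled RNA. The submitters' processing notes name RMA. Its version, the step that standardised each probe set, and whether this was done on log values are not given in the sources used here. Probe sets with 1 gene name (20380 of 22690) were averaged into 12393 genes, and 691 with several names were left out. limma 3.58.1 (R 4.3.3) fitted a mean per genotype to all 9 arrays together, leaving 5 residual degrees of freedom. Contrasts and the F test used ordinary statistics without variance moderation, since scores keep no level, with Benjamini-Hochberg adjustment over all genes. The script was tested on simulated data. The number of arrays limits the precision. Members and gene lists were chosen with earlier results of these data known. Named were all 8 members, the 3 genes of highest correlation with each (no members and no predicted or clone names), called list genes (up to 4 per list) and the 3 largest differences of the S100 and connexin lists. Alternatives were each array left out, the replicate block, 2 groups alone, moderated variance, array weights, arrays centred, single probe sets, and arrays high in 18S or widest left out.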

Additional observations from a re-analysis of the deposited data

Results flagged for a closer look

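For Gjb2, the test of the difference between lines passed on all 9 arrays for L60 against both L84 and LA, but not under most alternatives. The contrast of L84 with L60 was -1.63 (adjusted p = 0.0386) and that of LA with L60 was -1.95 (adjusted p = 0.0126), in limma's test without moderation. The first call was kept in 0 of 16 alternatives (adjusted p = 0.0568 to 0.761, 0.716 with moderated variance) and the second in 6 of 16 (0.0163 to 0.421, 0.228 with moderated variance). Both L84 and both LA arrays lay below both L60 arrays. No explanation of this was tested.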

How the results depend on the processing

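Depth is not defined for scores, and 2 or 3 arrays per group limit every value. The direction of Gjb2 held under all alternatives, but the count of members called went from 1 to 0 in L84 and LA against LC, in both lines against L60 and in the F test with the replicate block, moderated variance, and without the arrays high in 18S or those with the widest scores. It was also 0 with only the 2 groups compared (not run for the F test), with array weights for L84 against LC or L60, and with centred arrays for L84 against L60. Adjusted p of Gjb2 for L84 and LA was 0.201 and 0.117 with the block, 0.116 and 0.0606 with 2 groups, 0.244 and 0.161 without the 18S arrays, and 0.102 and 0.0736 without the widest. Leaving out single arrays gave 0 to 1 members in L84, 1 to 2 in LA, 0 to 0 for L84 against L60 and 0 to 1 for LA against L60 and the F test. Deviations of same-numbered arrays correlated at 0.345 between L84 and LA, 0.16 between LC 1 and L60 1 and 0.115 between L60 and L84, and at -0.0833 to 0.0901 for the other pairs, so not every pair deviated together and no label says that a number marks a shared batch. The number-1 arrays of LC, L60 and L84, but not of LA, were high in 18S. With the block Krt17 in L60 was 0.0319, the only sign it turned. Testing every probe set on its own changed no count of members called.

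No difference called on all 9 arrays turned its sign. Without the arrays high in 18S, Krt6b was -0.0500 in L60 and S100a8 -0.259 in L84, Krt17 -0.231 in LA, Krt6a -0.745 and Krt16 -1.73 for L84 against L60, and Krt6a 0.46, Krt6b -0.0592 and Krt16 0.752 for LA against L84. Without the widest arrays, S100a8 was -0.0737 in L84, Krt6a -1.01 and Krt16 -1.66 for L84 against L60, Krt6a 0.0704, Krt6b -0.224 and S100a9 -0.0349 for LA against L60, and Krt6a 1.08, Krt6b -1.38, Krt16 0.617 and S100a9 -0.394 for LA against L84. Krt17 was -0.0975 in LA with centred arrays, -0.163 with array weights, and 0.73 in L60 from 1 probe set. Leaving out single arrays turned a sign within these ranges. Against LC they were -0.32 to 0.0070 (Krt16) and -0.328 to 0.11 (Krt17) in L60, -1.85 to 0.502 (Krt6a), -1.8 to 1.71 (Krt16) and -0.0737 to 1.94 (S100a8) in L84, and -0.231 to 0.207 (Krt17) in LA. For L84 against L60 they were -1.01 to 1.35 (Krt6a) and -1.66 to 1.85 (Krt16). For LA against L60 they were -1.17 to 0.0704 (Krt6a), -0.224 to 2.42 (Krt6b), -0.0676 to 0.262 (Krt17) and -0.0349 to 2.83 (S100a9). For LA against L84 they were -1.9 to 0.46 (Krt6a), -1.01 to 1.63 (Krt6b), -2.76 to 0.752 (Krt16) and -0.304 to 2.56 (S100a9).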
